A study of Mus musculus with 2 samples.

Results

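The genes of the proteasome, the barrel-shaped protease that degrades ubiquitin-tagged proteins, were followed across the cell classes of lineage-depleted mouse bone marrow. Members were all genes measured in both libraries whose symbol is Psma, Psmb, Psmc, Psmd, Psme or Psmg with a digit behind it, leaving out pseudogene symbols. The rule took 49 of the 24393 genes that both tables list. Of these, 31 encode the constitutive subunits of the 26S proteasome, 3 the inducible catalytic subunits of the immunoproteasome (Psmb8, Psmb9 and Psmb10), 4 the activators, 7 the assembly chaperones and 2 the tissue-restricted core subunits Psma8 and Psmb11. The remaining 2 are Psmc3ip, which encodes a meiotic recombination cofactor and no subunit, and Psme2b, a near-identical copy of Psme2 whose reads may have been split between both genes.

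The marrow came from ICR mice, an outbred stock, aged 7 to 8 weeks, and was captured on the BD Rhapsody platform after negative selection against lineage markers with magnetic beads. Hypoxia mice were housed for 13 days under a chamber pressure of 52.93 kPa, labelled as an altitude of 5000 m, with oxygen listed at 19.5%. Control mice were killed on reaching Xining, without a stay of equal length. The labels name no transgene. Each group is 1 library, and the sources used here do not say how many mice it pooled. Treatment, age at death, handling and inherited differences between outbred animals therefore cannot be told apart, no test was possible, and every interval below covers counting error only.

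After filtering, 6280 hypoxia and 3917 control cells remained, with median depths of 21344.5 and 32156 unique molecules (UMIs) per cell. Cells were sorted into classes by marker genes, without any proteasome gene among the markers, and 11 classes held at least 30 cells in each library. Each class is a range of a marker score and is named for its markers only. Among the 10 leading genes of each of these classes, none held more markers of another class than of its own, although in the megakaryocyte-erythroid progenitor gate 2 basophil or mast cell markers stood beside 2 of its own. Neighbouring gates overlapped to a different degree in the libraries: 45.4% of hypoxia but 26.1% of control granulocyte progenitor-gated cells also passed the monocyte-dendritic limit, and 41.6% against 61.9% of HSC/MPP-gated cells (haematopoietic stem cells and multipotent progenitors) also passed the megakaryocyte-erythroid one. Within 10% of a limit lay 1.52% of control neutrophil-gated cells at the lowest and 25.5% of hypoxia erythroblast-gated cells at the highest. The libraries share 23 cell indices. Levels are CPM, the usual depth-scaled unit, with all UMIs of the class as the total, and are given as hypoxia against control, and each UMI stands for 1 captured transcript whatever its length. For the log2 ratio 10 CPM were added to each level, which understates the ratio of low genes, and a member was counted as higher or lower when that ratio reached 1.5-fold. A gene entered such counts with at least 50 UMIs over both libraries in a class.

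The core of the proteasome is a stack of alpha and beta rings, with the proteolytic sites in 3 of the beta subunits. A regulatory particle, made of a base with a ring of ATPases and a lid with a deubiquitinase, recognises, unfolds and feeds in substrates. In immune cells and under interferon, Psmb8, Psmb9 and Psmb10 replace Psmb5, Psmb6 and Psmb7 in newly assembled cores, and the resulting immunoproteasome cuts proteins into peptides that MHC class I molecules display. The PA28 activator, encoded by Psme1 and Psme2, docks on the core and is also interferon-inducible. Constitutive subunits are induced together by the transcription factor NRF1 when proteasome activity falls short, through antioxidant response elements in their promoters.

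Psmb9 and Psmb8 lie with the peptide transporter genes Tap1 and Tap2 inside 34335 bases of the major histocompatibility complex on chromosome 17 (GENCODE vM21 on GRCm38). Psmb9 runs from 34181987 to 34187764 on the minus strand, with its start next to that of Tap1 (34187553 to 34197225, plus strand). Psmb8 follows from 34197721 to 34201454 and Tap2 from 34203527 to 34216321, both on the plus strand. Their constitutive counterparts are elsewhere: Psmb5 on chromosome 14 (54614119 to 54618022, minus strand) and Psmb6 on chromosome 11 (70525367 to 70527858, plus strand). Psmb10 (chromosome 8, 105935735 to 105938444) and Psmb7 (chromosome 2, 38588036 to 38644087) are not in the complex either, and the only other member on chromosome 17 is Psmb1.

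The promoters were searched because the results turn on genes with different known regulators. RefSeq promoter windows (GRCm38.p6, 250 bases before to 50 after a start) were found for 41 of the 49 members, as 44 windows. On both strands, TGACNNNGC (antioxidant response element) occurred in 6 member windows, those of Psmb5, Psmb6, Psmc6, Psmd12, Psmd9 and Psme4, and in 12.4% of all 32851 windows. The interferon-stimulated response element was in 5 member windows, those of Psmb3, Psmd4, Psmd9, Psme1 and Psmg4 and of no inducible beta subunit, and in 3.44% of all. TTCNNNGAA (gamma-activated site), which reads alike on both strands, was in 3 member windows, Psmb8 among them, and 8.30% of all, and CCAAT in 15 and 37.4%. Matches of different motifs could overlap, and a match is only a match of letters. The stretches of 30 bases that hold a match in 5 genes described below are given 5′ to 3′ on the strand of the gene, with the match in capitals. For Psmb9 and Psme1 the capitals show the reverse complement of the motif. RefSeq and GENCODE place some starts differently, and the stretches of Psmb8, Psmb9 and Psme1, set by the RefSeq start, lie inside the GENCODE gene bounds.
Psmb5, antioxidant response element, chr14:54618023-54618052, minus strand: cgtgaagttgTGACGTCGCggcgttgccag
Psmb6, antioxidant response element, chr11:70525338-70525367, plus strand: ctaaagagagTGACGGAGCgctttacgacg
Psmb8, gamma-activated site, chr17:34198088-34198117, plus strand: tcctccgctgTTCCCAGAAgatgccccccc
Psmb9, CCAAT box, chr17:34187321-34187350, minus strand: gcgcagccgctgATTGGaaagccgagcccc
Psme1, interferon-stimulated response element, chr14:55578493-55578522, plus strand: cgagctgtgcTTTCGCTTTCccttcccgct

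Across classes, constitutive subunits were most abundant in erythroid progenitor-gated cells and least abundant in neutrophil-gated cells. Summed over the 31 genes, they made up 0.747% of UMIs in control erythroid progenitor-gated cells, 0.625% in erythroblast-gated and 0.597% in megakaryocyte-gated cells, against 0.192% in neutrophil-gated cells. The remaining control classes lay between 0.332% (basophil or mast cell) and 0.4999% (granulocyte progenitor). In the hypoxia library the order at the top was erythroid progenitor (0.661%), megakaryocyte (0.602%) and erythroblast (0.590%), and neutrophil-gated cells were again lowest at 0.217%.

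**Figure D1:**
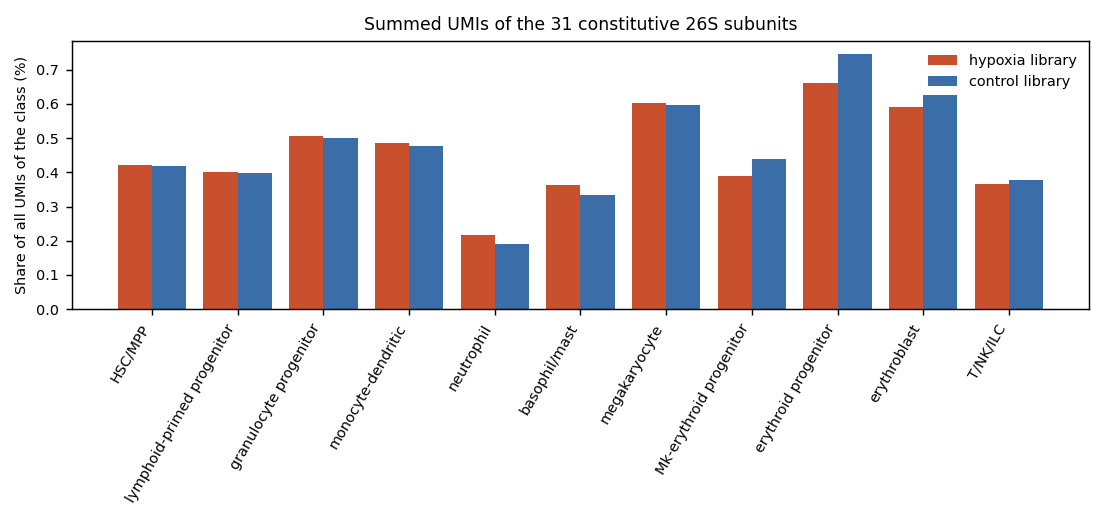
Bars show the summed UMIs of the 31 constitutive 26S subunits as a percentage of all UMIs of each gated class, in the hypoxia library (red) and the control library (blue), 1 library each and no error bar. The control bar is taller in erythroid progenitor-gated cells (0.747% against 0.661%), and the bars of HSC/MPP-gated cells differ by 1.004 times.

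Counts of 1.5-fold differences among the members were read against the share of all tested genes that passed in the same class. Over whole libraries 1 of 48 members was higher and 0 lower, beside 3.68% of all genes either way (2.57% higher, 1.11% lower). No member passed among 48 in HSC/MPP-gated cells (5.44% of all genes either way, 2.98% higher, 2.46% lower) or among 48 in granulocyte progenitor-gated cells (2.56%, 1.29% and 1.27%). In each of the next gates 1 member was higher and 0 lower: lymphoid-primed progenitor (48 tested; 5.81%, 3.08% and 2.74%), monocyte-dendritic (48; 7.42%, 4.84% and 2.57%), basophil or mast cell (47; 6.45%, 3.59% and 2.85%) and erythroid progenitor (48; 3.51%, 2.13% and 1.38%). Megakaryocyte-gated (47; 9.95%, 3.78% and 6.18%) and erythroblast-gated cells (46; 9.64%, 6.83% and 2.81%) had 2 higher and 0 lower. Megakaryocyte-erythroid progenitor-gated cells had 1 higher and 1 lower of 48 (6.39%, 3.38% and 3.0%), neutrophil-gated 3 and 1 of 17 (16.7%, 10.9% and 5.73%), and T/NK/ILC-gated 0 and 1 of 22 (21.4%, 11.5% and 9.96%). Over the 11 classes 12 of 467 combinations were higher and 3 lower, so the members' shares lay near or under the background in most classes. Only 15 members reached the minimum of UMIs in all 11 classes.

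Between the libraries, constitutive subunits were lower under hypoxia in erythroid progenitor-, erythroblast- and megakaryocyte-erythroid progenitor-gated cells and level or higher in most other classes. The last of these gates is mixed. By clusters, 293 of its cells fell in the cluster of the same name, 181 in basophil or mast cell and 54 in erythroid progenitor clusters. Granulocyte progenitor and megakaryocyte clusters held 30 each. In erythroid progenitor-gated cells their summed share was 0.885 times that of control (95% interval 0.882 to 0.888), 27 of 31 genes had a log2 ratio below 0, and their median was -0.21 beside 0.03 over the 11798 genes tested there, of which 58.4% were above 0. Megakaryocyte-erythroid progenitor-gated cells had a ratio of 0.891 with 23 of 31 genes below 0, and erythroblast-gated cells 0.945 with 24 of 31. The erythroblast median of -0.12 ran from -0.20 to 0.05 over the processing alternatives, whereas those of the other 2 gates stayed below 0. No constitutive subunit was 1.5-fold different in erythroid progenitor-gated cells, where 3.51% of all genes were. The difference was small for each gene and shared by many. In sums over a gate, less RNA of a gene per cell and fewer cells of a high-level stage cannot be told apart.

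In the other classes the direction was mixed. The ratio of summed shares was 1.004 in HSC/MPP-gated, 1.008 in lymphoid-primed progenitor-gated, 1.012 in granulocyte progenitor-gated, 1.016 in monocyte-dendritic-gated and 1.008 in megakaryocyte-gated cells. It was 1.088 in basophil or mast cell-gated cells, with 22 of 31 genes above 0, and 1.134 in neutrophil-gated cells, where only 14 of the 31 genes reached the minimum of UMIs. T, NK and innate lymphoid (T/NK/ILC)-gated cells gave 0.975 with 16 genes tested. Whether the ratio differs between classes beyond the spread of animals cannot be tested with 1 library a group.

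The decrease in erythroid progenitor-gated cells was present along the whole of that gate. Erythroid progenitor-gated cells were divided by an erythroblast marker score (led by haemoglobin genes and the haem synthesis gene Alas2), and the hypoxia share was 0.879, 0.881, 0.903 and 0.893 times control from the lowest to the highest range. Divided by depth, it was 0.885 below 20000 UMIs, 0.941 from 20000 to 30000, 0.918 from 30000 to 40000 and 0.903 above. Depth itself differed, with medians of 28519.5 and 41843.5 UMIs in this gate, and in both libraries the share was higher in deeper cells, from 0.611% to 0.685% under hypoxia and from 0.691% to 0.758% in control. Within the 7 clusters that held at least 30 of these cells from each library, formed without proteasome genes, the ratio ran from 0.815 in cluster 1 to 0.924 in cluster 6. The libraries filled those clusters unequally: cluster 4 held 58 hypoxia and 647 control cells of the gate, and cluster 3 held 606 and 106.

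**Figure D2:**
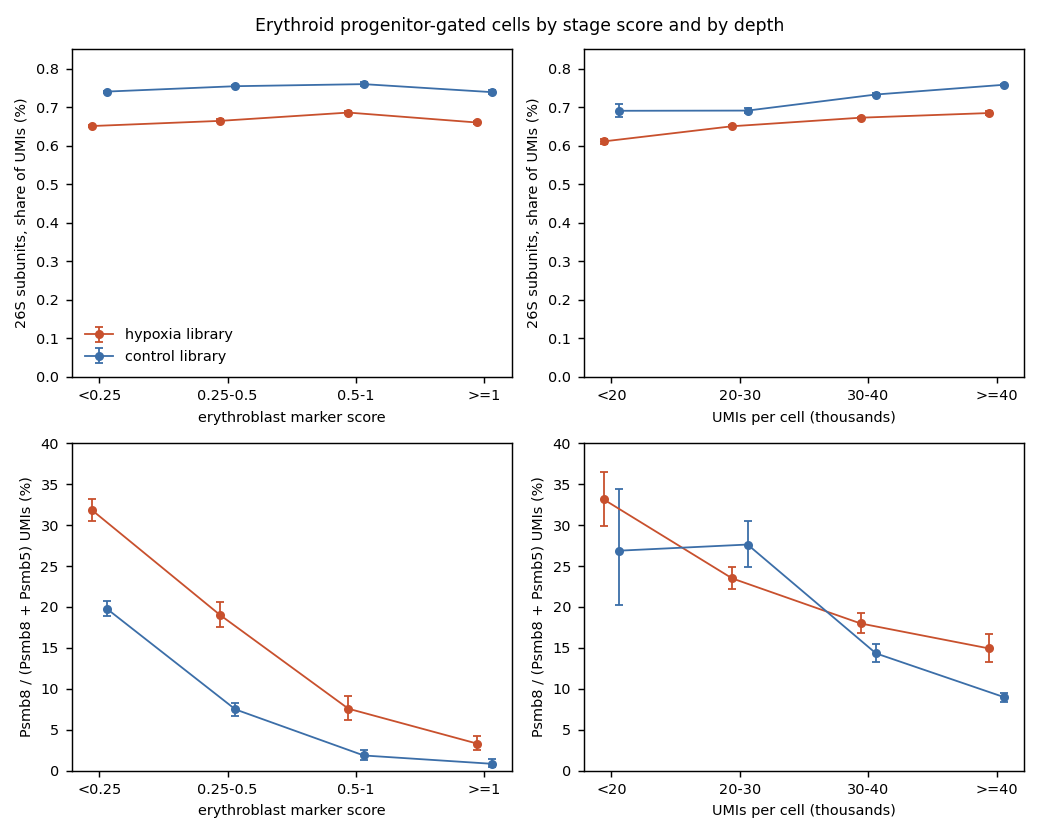
Erythroid progenitor-gated cells divided by erythroblast marker score (left) and by UMIs per cell (right), in the hypoxia (red) and control (blue) library; upper panels show the share of UMIs from 31 constitutive 26S subunits, lower panels the Psmb8 share of the Psmb8 and Psmb5 pair. Bars are exact 95% intervals of the counts. The hypoxia points of the upper panels lie below control in all 8 ranges, while the Psmb8 share falls from 31.9% to 3.30% with the score and is below control in the range of 20000 to 30000 UMIs.

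Within the core, alpha subunits did not move as 1 block. Of the 7 alpha subunits that build the outer ring, Psma1, Psma5 and Psma6 were above control in every class in which they were tested (9, 9 and 10 classes). Psma5 stood at 195.6 against 171.6 CPM in erythroid progenitor-gated cells and at 212.6 against 115.6 CPM in megakaryocyte-gated cells, where its log2 ratio of 0.83 passed 1.5-fold beside 9.95% of all genes. Only 37 hypoxia and 71 control cells stand behind that last value. Psma3 and Psma7 were below control in 10 of 11 classes. Psma3 stood at 339 against 440.2 CPM in erythroid progenitor-gated cells, and at 108 against 214 CPM in T/NK/ILC-gated cells, a log2 ratio of -0.93 from 26 and 44 UMIs, in a class where 21.4% of all genes passed 1.5-fold.

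Among the constitutive beta subunits, the catalytic Psmb5 and Psmb6 were below control in every class tested. Psmb5 carries the chymotrypsin-like site and was the member with the lowest log2 ratio in lymphoid-primed progenitor-, monocyte-dendritic-, basophil or mast cell-, erythroid progenitor- and erythroblast-gated cells. It was below control in all 9 classes tested, at log2 ratios from -0.58 to -0.04. Its levels were 98.6 against 146 CPM in erythroid progenitor-gated, 67.8 against 98.9 CPM in erythroblast-gated and 62.0 against 87.8 CPM in megakaryocyte-erythroid progenitor-gated cells. They were 67.8 against 88.8 CPM in HSC/MPP-gated, 52.3 against 74.4 CPM in lymphoid-primed progenitor-gated, 85.2 against 114 CPM in granulocyte progenitor-gated and 74.97 against 109 CPM in monocyte-dendritic-gated cells. The same direction held in basophil or mast cell-gated cells (55.1 against 87.2 CPM), whereas megakaryocyte-gated cells were nearly level at 157 against 162 CPM, with a log2 ratio that turned to 0.05 when per-cell CPM were averaged. No class reached 1.5-fold, although the erythroid progenitor ratio of -0.52 became -0.63 with TMM scaling. Neutrophil-gated (26.5 against 28.0 CPM) and T/NK/ILC-gated cells (82.8 against 117 CPM) had too few UMIs to be tested.

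Psmb6, with the caspase-like site, was also below control in all 9 classes tested. It passed 1.5-fold in megakaryocyte-erythroid progenitor-gated cells, at 87.3 against 143 CPM (log2 ratio -0.65), where 6.39% of all genes passed. A stricter gate gave -0.51 and gates on thinned cells -0.38, both short of 1.5-fold. Other levels were 163 against 213 CPM in erythroid progenitor-gated, 132 against 143 CPM in erythroblast-gated, 122 against 140.2 CPM in HSC/MPP-gated and 113 against 134 CPM in lymphoid-primed progenitor-gated cells. Granulocyte progenitor-gated cells had 144 against 166 CPM, monocyte-dendritic-gated 140.3 against 151 CPM, basophil or mast cell-gated 89.8 against 102 CPM and megakaryocyte-gated 204 against 215 CPM. With averaged per-cell CPM the log2 ratio of Psmb6 turned to 0.04 in the lymphoid-primed, 0.26 in the megakaryocyte and 0.06 in the erythroblast gate. As summed, the log2 ratio of Psmb6 lay closer to 0 than that of Psmb5 in each of the 9 classes except the megakaryocyte-erythroid progenitor and megakaryocyte gates. Untested values were 69.9 against 59.1 CPM in neutrophil-gated and 53.8 against 112 CPM in T/NK/ILC-gated cells.

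Psmb7, with the trypsin-like site, went both ways. It was lower in erythroid progenitor-gated (234 against 281 CPM), erythroblast-gated (237 against 269 CPM), monocyte-dendritic-gated (164 against 188 CPM), granulocyte progenitor-gated (159 against 175 CPM) and megakaryocyte-gated cells (164 against 194 CPM). Smaller gaps in the same direction were seen in HSC/MPP-gated (129 against 137 CPM) and megakaryocyte-erythroid progenitor-gated cells (132 against 142 CPM). It was higher in lymphoid-primed progenitor-gated (139 against 125 CPM), neutrophil-gated (74.8 against 62.2 CPM) and T/NK/ILC-gated cells (149 against 131 CPM), and level in basophil or mast cell-gated cells (105.9 against 105.5 CPM). Over the alternatives the log2 ratio reached 0.04 in erythroblast-gated and -0.23 in T/NK/ILC-gated cells.

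The non-catalytic beta subunits Psmb1 and Psmb2 were above 0 in 10 and 8 of 11 classes. Psmb2 (89.2 against 49.7 CPM) and Psmb3 (91.6 against 52.9 CPM) passed 1.5-fold in neutrophil-gated cells, where 16.7% of all genes did so, from 37 and 16 and from 38 and 17 UMIs. In erythroid progenitor-gated cells Psmb2 was level at 248 against 250.3 CPM, Psmb1 stood at 384 against 369.8 CPM, and Psmb3 (166 against 193 CPM) and Psmb4 (379 against 404 CPM) lay below control.

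**Figure D3:**
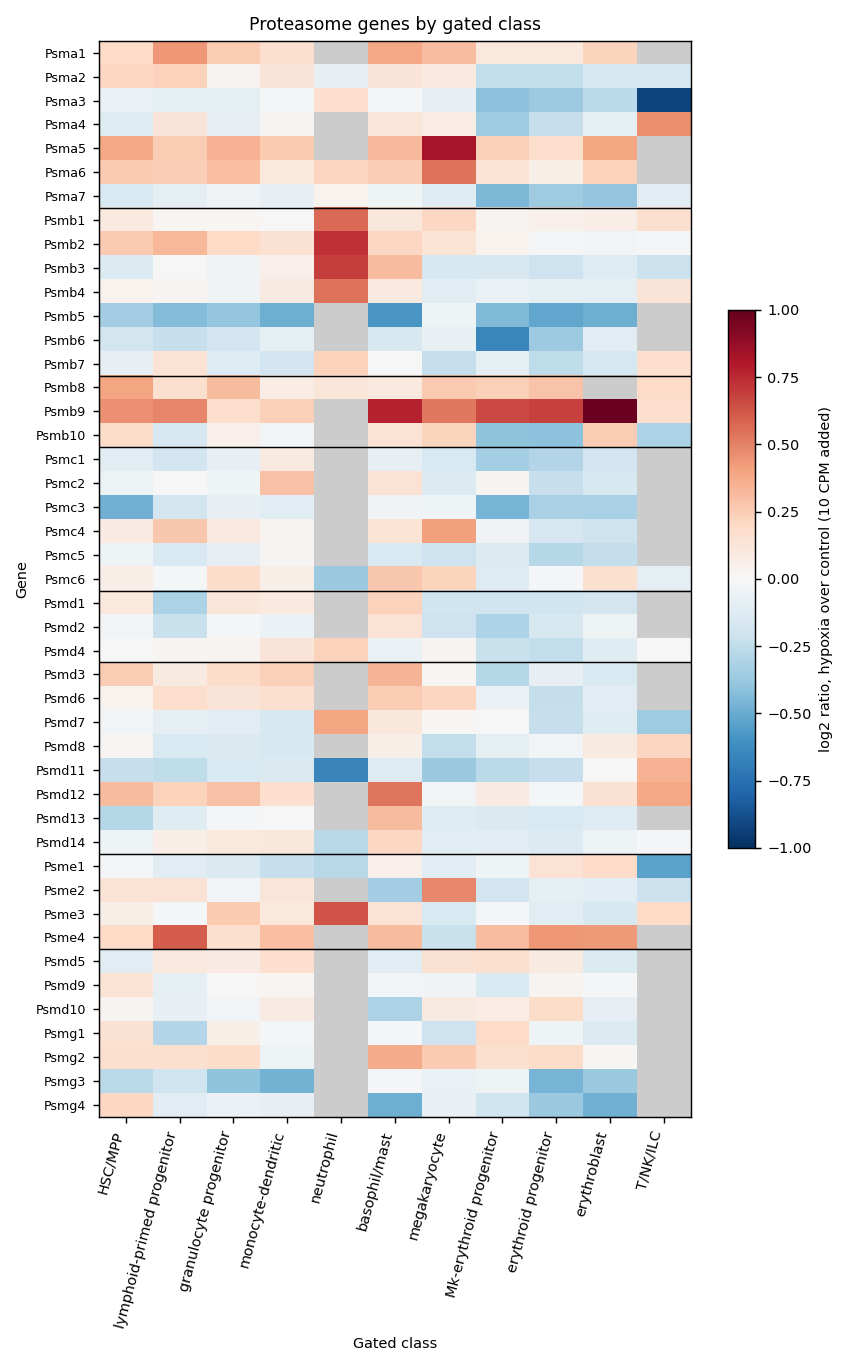
Each cell of the map is the log2 ratio of hypoxia over control (10 CPM added on both sides) of a proteasome gene in a gated class, red for higher and blue for lower, grey where the gene had under 50 UMIs over both libraries. Black lines separate, from the top, the alpha ring, constitutive beta ring, inducible beta, base ATPases, other base subunits, lid, activators and assembly chaperones; the Psmb9 row is red and the Psmb5 row blue in every class tested, and the erythroid columns are mostly blue.

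In the regulatory particle, the base followed the core. All 6 ATPases and all 3 other base subunits were below 0 in erythroid progenitor-gated cells, and the ATPases' summed share there was 0.857 times control. Psmc3, an ATPase of the base ring, was below 0 in all 9 classes tested and was the lowest member in HSC/MPP-gated cells (72.0 against 104.4 CPM, log2 ratio -0.48). All 8 lid subunits were below 0 in erythroid progenitor-gated cells too, from -0.24 to -0.01. Psmd7, the partner of the deubiquitinase Psmd14, had the highest level of the lid there at 414 against 489 CPM.

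Lid subunits differed in other classes. Psmd12 was above control in 8 of 10 classes, with 117 against 77.7 CPM in basophil or mast cell-gated cells (log2 ratio 0.54), and Psmd11 was below in 10 of 11, with 199.0 against 260.3 CPM in megakaryocyte-gated cells. In neutrophil-gated cells Psmd11 passed 1.5-fold lower at 55.5 against 93.3 CPM, from 23 and 30 UMIs.

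Of the inducible subunits, Psmb8 and Psmb9 stood above control where Psmb5 and Psmb6, which they replace, stood below, and Psmb10 did not show this pattern. Psmb9 was the member with the most 1.5-fold differences, with 4 of the 12 that were higher among all 467 combinations of gene and class. It was above control in all 10 classes tested, with log2 ratios from 0.17 to 0.99. Erythroid progenitor-gated cells had 23.6 against 11.0 CPM (1989 and 984 UMIs, ratio 2.15, 1.99 to 2.33; log2 ratio 0.68, or 0.57 and short of 1.5-fold in cells of 20000 to 40000 UMIs), and megakaryocyte-erythroid progenitor-gated cells 83.6 against 49.2 CPM (log2 ratio 0.66, interval of the plain ratio 1.39 to 2.07). Basophil or mast cell-gated cells had 31.6 against 14.4 CPM (ratio 2.19, 1.44 to 3.45, beside 6.45% of all genes past 1.5-fold). Erythroblast-gated cells had 84 UMIs against 1, or 11.1 against 0.664 CPM, a ratio of 16.8 with a counting interval of 2.93 to 669.9, beside 9.64% of all genes past 1.5-fold. Haemoglobin levels in that gate were lower under hypoxia, at 12773 against 19162.5 CPM for Hba-a1 and 8379 against 11832 CPM for Hbb-bs. The gate may thus hold different stages in the 2 libraries, and the part of stage was not tested.

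The remaining classes showed smaller gaps in the same direction. Psmb9 stood at 97.8 against 68.7 CPM in HSC/MPP-gated, 109 against 74.9 CPM in lymphoid-primed progenitor-gated and 80.1 against 69.6 CPM in granulocyte progenitor-gated cells. It was 106 against 88.2 CPM in monocyte-dendritic-gated, 46.4 against 29.2 CPM in megakaryocyte-gated and 132 against 117 CPM in T/NK/ILC-gated cells. The neutrophil gate, with 27 and 12 UMIs, gave 65.1 against 37.3 CPM. When classes were rebuilt from clusters, the lymphoid-primed log2 ratio of 0.49 became -0.03, the T/NK/ILC value of 0.17 became -0.02, and the basophil or mast cell value fell from 0.77 to 0.44, short of 1.5-fold. The lymphoid-primed cluster is largely another set of cells. It held 152 cells of that gate and 28 B lineage-gated cells, and Igkc and Ighm led its genes. Monocyte-dendritic clusters held 128 cells of the gate.

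Psmb8 was above control in each of the 10 classes tested but never reached 1.5-fold. Levels were 291 against 219.5 CPM in HSC/MPP-gated, 318 against 253 CPM in granulocyte progenitor-gated and 25.9 against 19.4 CPM in erythroid progenitor-gated cells, the 3 highest log2 ratios (0.39, 0.32 and 0.29). They were 370.5 against 330.5 CPM in lymphoid-primed progenitor-gated, 344 against 326 CPM in monocyte-dendritic-gated, 226 against 189.9 CPM in megakaryocyte-erythroid progenitor-gated and 147 against 137 CPM in basophil or mast cell-gated cells. The intervals of the ratio included 1 in the monocyte-dendritic and basophil or mast cell gates. They did so too in megakaryocyte-gated (99.5 against 81.2 CPM), neutrophil-gated (82.0 against 74.6 CPM) and T/NK/ILC-gated cells (385 against 335 CPM). Erythroblast-gated cells held 17 and 1 UMIs (2.25 against 0.664 CPM). In erythroid progenitor-gated cells the direction depended on depth. Psmb8 was below control under 20000 UMIs (42.7 against 45.0 CPM), from 20000 to 30000 (28.9 against 50.1 CPM) and from 30000 to 40000 (22.9 against 23.8 CPM), and above it only over 40000 UMIs (17.7 against 14.6 CPM). Control cells were deeper, and Psmb8 levels were lower in the deepest cells of both libraries. By erythroblast score, Psmb8 was above control in all 4 ranges, from 48.7 against 36.4 CPM in the lowest to 2.96 against 1.09 CPM in the highest.

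Psmb10 had no common direction. It was lower in erythroid progenitor-gated (39.0 against 55.2 CPM) and megakaryocyte-erythroid progenitor-gated cells (47.8 against 66.6 CPM), both at a log2 ratio of -0.41. Higher values were seen in HSC/MPP-gated (92.8 against 80.6 CPM), megakaryocyte-gated (81.4 against 68.2 CPM), basophil or mast cell-gated (34.2 against 29.99 CPM), granulocyte progenitor-gated (102 against 97.6 CPM) and erythroblast-gated cells (7.42 against 4.65 CPM). Lymphoid-primed progenitor-gated (68.9 against 78.6 CPM), monocyte-dendritic-gated (92.9 against 94.9 CPM) and T/NK/ILC-gated cells (103 against 131 CPM) lay below control. Neutrophil-gated cells held 4 and 2 UMIs. The sign was not stable in the lymphoid-primed and monocyte-dendritic gates, where 3 of 13 settings each lay above 0 (up to 0.18 and 0.07), and 1 setting each turned to -0.01 in HSC/MPP-gated and basophil or mast cell-gated cells.

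**Figure D4:**
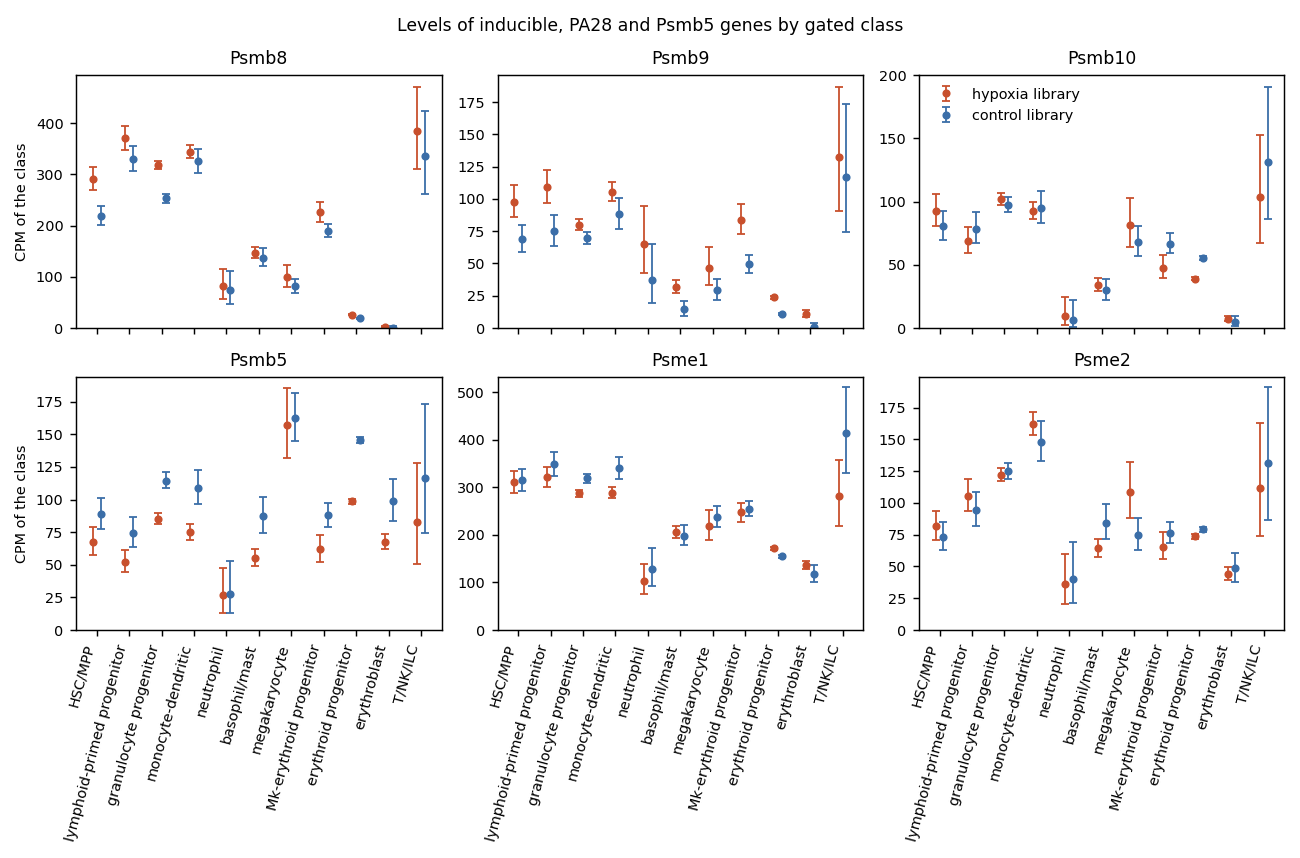
Points are CPM of the class for 6 proteasome genes in 11 gated classes, in the hypoxia (red) and control (blue) library, with exact 95% Poisson intervals. Psmb8 ranges from 0.664 CPM in control erythroblast-gated to 385 CPM in hypoxia T/NK/ILC-gated cells, and the hypoxia points of Psmb5 lie below control in each class.

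The balance of each catalytic pair was read as the share of the pair's UMIs that came from the inducible gene. In both libraries Psmb8 outnumbered Psmb5 in HSC/MPP-, lymphoid-primed, granulocyte, monocyte-dendritic, neutrophil, basophil or mast cell, megakaryocyte-erythroid progenitor and T/NK/ILC gates, and Psmb5 outnumbered Psmb8 in the megakaryocyte and both later erythroid gates. The Psmb8 share was above control in all 11 classes as summed. The difference turned negative in 2 of 12 settings in neutrophil-gated cells (down to -4.23 percentage points) and in 1 of 12 in megakaryocyte-gated cells (-1.61), and it fell from 8.11 to as little as 1.248 points in T/NK/ILC-gated cells. The share was 81.1% (78.3 to 83.7) against 71.2% (67.8 to 74.4) in HSC/MPP-gated, 87.6% against 81.6% in lymphoid-primed progenitor-gated, 78.9% against 68.9% in granulocyte progenitor-gated and 82.1% against 74.95% in monocyte-dendritic-gated cells. It was 72.8% against 61.1% in basophil or mast cell-gated and 78.5% against 68.4% in megakaryocyte-erythroid progenitor-gated cells. In erythroid progenitor-gated cells it was 20.8% (20.01 to 21.6) against 11.7% (11.2 to 12.3), and 3.21% against 0.667% in erythroblast-gated cells. The erythroblast shares compare cells whose haemoglobin levels differed, as given above. The intervals of the 2 libraries overlapped in the neutrophil (75.6% against 72.7%), megakaryocyte (38.8% against 33.3%), erythroblast and T/NK/ILC (82.3% against 74.2%) gates and were apart in the other 7. By this share, lymphoid-primed cells were highest in both libraries, and the hypoxia values of the T/NK/ILC, monocyte-dendritic and HSC/MPP gates lay within each other's intervals.

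The Psmb9 share was likewise above control in all 11 classes, in every setting run, but the difference fell from 13.3 to as little as 4.66 percentage points in lymphoid-primed progenitor-gated and from 20.05 to 8.94 points in T/NK/ILC-gated cells. It fell from 9.50 to 5.41 points in neutrophil-gated, from 6.61 to 3.35 in megakaryocyte-gated and from 6.04 to 3.93 in monocyte-dendritic-gated cells. The widest gap was in megakaryocyte-erythroid progenitor-gated cells, 48.9% (44.0 to 53.9) against 25.7% (22.7 to 28.8), in a gate with 181 cells from basophil or mast cell clusters. That was the only class in which Psmb6, below control in all 9 classes tested, passed 1.5-fold as summed. Psmb9 shares were 44.5% against 32.9% in HSC/MPP-gated, 49.2% against 35.9% in lymphoid-primed progenitor-gated, 35.7% against 29.6% in granulocyte progenitor-gated and 43.0% against 36.9% in monocyte-dendritic-gated cells. They were 25.99% against 12.4% in basophil or mast cell-gated, 18.6% against 11.9% in megakaryocyte-gated, 12.7% against 4.91% in erythroid progenitor-gated and 7.78% against 0.463% in erythroblast-gated cells. The difference in haemoglobin levels applies to the erythroblast values here too. T/NK/ILC-gated cells had 71.1% against 51.1% and neutrophil-gated 48.2% against 38.7%, from 31 to 56 UMIs of the pair. Intervals overlapped in these gates and in the monocyte-dendritic and megakaryocyte gates, and were apart in the other 7. Unlike these, the Psmb10 share was above control in 7 of 11 classes, with intervals apart only in granulocyte progenitor-gated (39.0% against 35.8%) and, lower under hypoxia, in erythroid progenitor-gated cells (14.3% against 16.4%). The sign of its difference depended on the setting in the lymphoid-primed, neutrophil and basophil or mast cell gates.

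**Figure D5:**
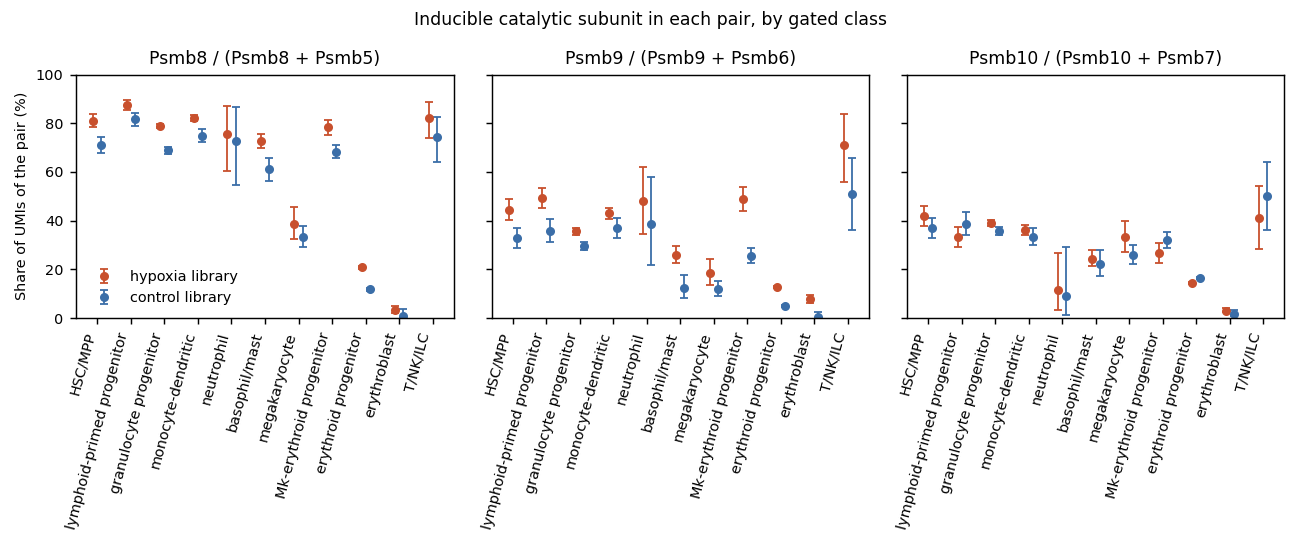
Points are the percentage of a pair's UMIs that came from the inducible subunit in each gated class, in the hypoxia (red) and control (blue) library, with exact Clopper-Pearson 95% intervals. The Psmb8 and Psmb9 panels have the hypoxia point above control in all 11 classes, and both shares are low in erythroid progenitor-gated and erythroblast-gated cells.

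Along the erythroid path the inducible subunits declined with the erythroblast score in both libraries. From the lowest to the highest range of that score within the erythroid progenitor gate, the Psmb8 share was 31.9%, 19.0%, 7.56% and 3.30% under hypoxia. In control it was 19.8%, 7.47%, 1.84% and 0.822%. The Psmb9 share went from 16.2% to 8.10% under hypoxia and from 7.10% to 1.51% in control, and the Psmb10 share from 19.0% to 7.08% and from 20.5% to 7.47%. Hypoxia cells thus had the higher Psmb8 and Psmb9 shares in each of the 4 ranges. By depth, the Psmb9 share was higher in all 4 ranges, whereas the Psmb8 share was lower under hypoxia from 20000 to 30000 UMIs (23.5% against 27.6%) and higher in the others. Within the 7 clusters both moved the same way, with Psmb9 levels from 1.40 to 5.14 times control and Psmb8 shares of 54.2% against 35.7% in cluster 1 and 1.34% against 0.300% in cluster 6.

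Free RNA from lysed cells can add UMIs to every class. Hba-a1, a haemoglobin gene, stood at 24.3 to 64.4 CPM in the hypoxia classes outside the erythroid progenitor and erythroblast gates, against 4.14 to 20.3 CPM in control. Under hypoxia the erythroblast gate had 2.25 CPM of Psmb8, 11.1 CPM of Psmb9 and 7.42 CPM of Psmb10, the lowest level of each over the classes compared. That gate held 84 Psmb9 and 17 Psmb8 UMIs under hypoxia, and the whole library held 5499 and 14346. The make-up of free RNA was not measured, and its part in the differences was not tested.

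PA28 did not follow Psmb9. Psme1 was 311 against 314 CPM in HSC/MPP-gated, 321 against 348 CPM in lymphoid-primed progenitor-gated, 287 against 318 CPM in granulocyte progenitor-gated and 288 against 339.7 CPM in monocyte-dendritic-gated cells. It was higher in erythroid progenitor-gated (172 against 155 CPM), erythroblast-gated (136 against 117 CPM) and basophil or mast cell-gated cells (205 against 198 CPM). Lower values were found in T/NK/ILC-gated (281 against 413 CPM), megakaryocyte-gated (218 against 237 CPM), neutrophil-gated (104 against 127 CPM) and megakaryocyte-erythroid progenitor-gated cells (247 against 255 CPM). Psme1 was thus above control in 3 of 11 classes as summed. With averaged per-cell CPM its log2 ratio turned from -0.12 to 0.46 in megakaryocyte-gated and from 0.05 to -0.02 in basophil or mast cell-gated cells, and it reached 0.07 in HSC/MPP-gated and 0.03 in megakaryocyte-erythroid progenitor-gated cells in 2 settings each.

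Psme2 was above control in 4 of 10 classes. It stood at 109 against 74.96 CPM in megakaryocyte-gated, 162 against 148 CPM in monocyte-dendritic-gated, 106 against 94.6 CPM in lymphoid-primed progenitor-gated and 81.5 against 73.2 CPM in HSC/MPP-gated cells. It was lower in basophil or mast cell-gated (64.3 against 84.4 CPM), megakaryocyte-erythroid progenitor-gated (65.7 against 76.5 CPM), erythroid progenitor-gated (73.8 against 79.3 CPM) and erythroblast-gated cells (44.4 against 48.4 CPM). Granulocyte progenitor-gated cells were level (122 against 125 CPM), T/NK/ILC-gated cells had 112 against 131 CPM, and neutrophil-gated 36.2 against 40.4 CPM. Over the alternatives the log2 ratio of Psme2 changed sign in HSC/MPP-gated (to -0.03), T/NK/ILC-gated (to 0.05) and erythroblast-gated cells (to 0.08). Its near copy Psme2b passed 1.5-fold higher in monocyte-dendritic-gated (54.4 against 31.9 CPM, beside 7.42% of all genes) and megakaryocyte-gated cells (29.4 against 13.5 CPM), and its reads are uncertain as said above.

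The other activators were not interferon-linked genes. Psme4, which encodes the PA200 activator, was above control in 8 of 9 classes. It passed 1.5-fold in lymphoid-primed progenitor-gated cells (78.5 against 48.0 CPM, log2 ratio 0.61, beside 5.81% of all genes) and stood at 126 against 90.4 CPM in erythroid progenitor-gated and 210.3 against 154 CPM in erythroblast-gated cells. Psme3, encoding the nuclear activator PA28 gamma, passed only in neutrophil-gated cells (139.9 against 87.1 CPM, 58 and 28 UMIs). In erythroid progenitor-gated cells it was 429 against 466 CPM, the highest level of any member in that class under hypoxia.

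None of the 63 combinations of an assembly chaperone with a class reached 1.5-fold, beside 2.56% to 9.95% of all genes in those 9 classes. Psmg3 was below control in all 9 classes tested, with 24.6 against 37.7 CPM in erythroid progenitor-gated cells, and Psmg2 was above in 8 of 9, with 205 against 179.5 CPM there. Psmg4 was below 0 in 8 of 9 classes, with 29.1 against 45.0 CPM in basophil or mast cell-gated cells. Of the tissue-restricted genes, Psma8, a testis alpha subunit, was tested in 6 classes at up to 19.1 CPM, and Psmb11, the thymus beta subunit, reached the minimum in none. Psmc3ip passed 1.5-fold higher in erythroblast-gated cells, at 78.1 against 45.8 CPM. Over all cells of a library, 48 members were tested and Psmb9 alone passed, at 41.2 against 23.0 CPM (log2 ratio 0.64, or 0.55 and short of 1.5-fold with TMM scaling). That value mixes levels with class make-up, which differed. Monocyte-dendritic-gated cells were 8.17% of hypoxia and 3.04% of control cells, and erythroid progenitor-gated cells 46.2% and 53.8%.

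Genes of class I peptide supply and its inducers were a list of 20 outside the symbol rule, chosen with earlier results of these data known. They were 1.5-fold higher in 39 of 190 combinations with a class and lower in 2. By class, 1.29% to 11.5% of all genes were higher and 1.27% to 9.96% lower. In erythroid progenitor-gated cells 6 of 20 were higher, beside 2.13% of all genes there. Because of how the list was chosen, its counts cannot be read as enrichment. H2-D1, a class I heavy chain, was higher in every class and so gave 11 of the 39, at 901 against 208 CPM in erythroid progenitor-gated and 1803 against 553 CPM in HSC/MPP-gated cells. Tap1, which shares its start region with Psmb9, stood at 25.9 against 9.32 CPM in erythroid progenitor-gated, 14.3 against 3.32 CPM in erythroblast-gated and 55.7 against 28.5 CPM in megakaryocyte-erythroid progenitor-gated cells. B2m, the class I light chain, was 1024 against 472 CPM in erythroid progenitor-gated cells, and H2-K1 307 against 125 CPM. Nlrc5, the class I transactivator, was 9.36 against 1.24 CPM and the kinase gene Jak2 76.6 against 40.4 CPM there. Calr (649 against 813 CPM) and Pdia3 (186 against 269 CPM), chaperones of the peptide-loading complex, were below control there but short of 1.5-fold. The 2 lower combinations were Pdia3 in neutrophil-gated cells (79.6 against 131 CPM, 33 and 42 UMIs) and Ifngr1 in T/NK/ILC-gated cells (244 against 476 CPM, 59 and 98 UMIs).

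Few combinations passed 1.5-fold in the remaining lists. By class, 2.56% to 21.4% of all genes passed either way, so low counts need not be particular to these lists. Of 158 combinations of proteasome partners 2 were higher and 2 lower. Pomp, a proteasome assembly factor, was higher in neutrophil-gated cells (86.8 against 46.6 CPM). The lower ones were Ubqln1 (73.5 against 125 CPM) and Ubqln4 (28.3 against 53.6 CPM) in megakaryocyte-gated cells. Of 102 combinations in the NRF1 and NRF2 axis, Mafk in basophil or mast cell-gated (57.7 against 30.5 CPM) and Ngly1 in erythroblast-gated cells (38.7 against 18.6 CPM) were higher and none lower. Nfe2l1, which encodes NRF1, was 36.3 against 42.4 CPM in erythroid progenitor-gated cells. Of the ubiquitin genes, Rps27a, a fusion of ubiquitin with a ribosomal protein, was below control in each class, with 2509 against 2979 CPM in erythroid progenitor-gated cells. Ubb, a polyubiquitin gene, passed 1.5-fold lower in T/NK/ILC-gated cells (319 against 525 CPM).

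The heat-shock gene Hsp90aa1 was lower in every class, and Hsph1 in every class except the neutrophil gate. There Hsph1 was level, at 14.5 against 15.5 CPM from only 6 and 5 UMIs. The decrease was not limited to erythroid progenitor-, megakaryocyte-erythroid progenitor- and erythroblast-gated cells. Hsph1 had log2 ratios of -2.15 in erythroid progenitor-gated, -2.62 in megakaryocyte-erythroid progenitor-gated and -2.66 in erythroblast-gated cells, and Hsp90aa1 -1.21, -1.30 and -1.44. In HSC/MPP-gated cells they were -1.98 and -0.91. In gates other than the erythroid progenitor, megakaryocyte-erythroid progenitor and erythroblast ones, Hsph1 ran from -2.32 in lymphoid-primed progenitor-gated to -0.06 in neutrophil-gated cells. Hsp90aa1 ran from -1.16 in megakaryocyte-gated to -0.74 in granulocyte progenitor-gated cells. The part of heat-shock genes in the proteasome differences was not tested.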

How the data were processed

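The deposited values are raw UMI counts, corrected for sequencing errors by the authors' software. Per the file headers this was BD's Rhapsody whole-transcriptome pipeline (1.7.1), run against GRCm38 and a GENCODE annotation; the submitters' processing notes also list Bowtie2. The tables hold 6406 hypoxia cells (137504361 UMIs) and 3956 control cells (121415081 UMIs). Cells with at least 500 UMIs, 200 genes and under 20% mitochondrial UMIs were kept (14 and 6 cells exceeded the last limit), and Scrublet, run per library in scanpy 1.11.5, removed 112 (1.75%) and 33 (0.834%) cells as doublets. The low doublet share may leave doublets in.

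A class score is the mean over its markers of log2 of 1 plus UMIs per 10000. Each score was divided by a limit set after the scores were seen, and a cell joined the class with the largest ratio if that reached 1. This left 109 hypoxia and 85 control cells unassigned. Counts were summed per class, with exact Poisson intervals for CPM and ratios and Clopper-Pearson intervals (95%) for pair shares. These intervals treat UMIs as independent and cover counting error only. Scripts were tested on simulated counts.

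Members and lists were chosen with earlier results of these data known. Values in every class are printed for Psmb5 to Psmb10, Psme1 and Psme2. Other members are named where they were among the 3 highest or 3 lowest of a class, 1.5-fold different, or extreme in level in their subgroup, and genes of related lists where 1.5-fold different; the few beyond this were chosen after their values were seen. Alternatives were other scalings, added CPM, minimum, cell filters, gates and Leiden clusters (leidenalg 0.10.2, resolution 1.0). A depth subset and a stage subset of erythroid progenitor-gated cells were added after the data were seen. Paaf1, AI314180 and Shfm1 were not analysed here. A few genes of the related and marker lists are not reported here.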

Additional observations from a re-analysis of the deposited data

How the results depend on the processing

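No paired analysis was possible because each group is 1 library, and leaving out a replicate was not possible for the same reason. Scaling by TMM factors moved all log2 ratios in erythroid progenitor-gated cells by 0.12 and over whole libraries by 0.11. The median of constitutive subunits in erythroid progenitor-gated cells, -0.21 as reported, was -0.32 with TMM factors and -0.28 with median-of-ratios factors, and it stayed below 0 under the 14 alternatives run there. In monocyte-dendritic-gated cells the stricter gate gave -0.027 in place of 0.05, and Leiden clusters gave -0.089 in place of -0.01 for granulocyte progenitors. The Psmb8 share in erythroid progenitor-gated cells, 9.05 percentage points above control, was 11.2 points above with Leiden clusters, 10.3 with the stricter gate, 12.1 with an erythroblast score below 0.25, and 3.61 with 20000 to 40000 UMIs. Members 1.5-fold higher, 12 over all classes, numbered 23 without a minimum of UMIs and 6 with gates on thinned cells. Those lower, 3 as reported, numbered 5 with TMM factors (11 higher), 5 with median-of-ratios factors (8 higher), 9 with 1 CPM added (15 higher), 8 without a minimum, 9 with the mean of per-cell CPM (18 higher), 6 with Leiden clusters (9 higher), 5 with the stricter gate (11 higher) and 1 with thinned cells. The cause of these shifts was not tested. Of 1136 values of single genes, 38 changed sign, 12 of them with the mean of per-cell CPM and 11 with the stricter gate. Among these, Psmb8 turned to -0.08 in megakaryocyte-gated cells with the stricter gate, and to -0.02 in basophil or mast cell-gated and -0.07 in T/NK/ILC-gated cells with the per-cell mean, while Psmb5 in megakaryocyte-gated cells turned to 0.05 with the per-cell mean and 0.02 with the stricter gate. No HSC/MPP cluster formed, so that alternative has no value. Low depth limits the neutrophil and T/NK/ILC gates, where 17 and 22 members could be tested.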

Other observations

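Classes with under 30 cells in a library entered no comparison. Among them, 35 dendritic-gated hypoxia cells had the highest Psmb8 level of any class, 525 CPM, and a Psmb8 share of 92.1% (86.6 to 95.9), with Psme1 at 405 CPM. The 11 plasmacytoid dendritic-gated hypoxia cells had a Psmb8 share of 73.7% and Psmb9 at 236 CPM. Eosinophil-gated cells had a Psmb8 share of 75.3% (64.2 to 84.4) from 77 UMIs of the pair under hypoxia and 60% (40.6 to 77.3) from 30 in control. In B lineage-gated cells, 14 in each library, it was 66.7% and 65.6%. The Psmb9 share was lower under hypoxia in both of these gates, 54.5% (38.8 to 69.6) against 57.9% (33.5 to 79.7) in eosinophil-gated and 33.3% (11.8 to 61.6) against 53.8% (33.4 to 73.4) in B lineage-gated cells, with overlapping intervals. The 16 endothelial or stromal-gated cells, all in the control library, held 0 Psmb9 UMIs among 8 of the pair, for which the exact 95% interval reaches 36.9%, while 8 of 12 UMIs of the other pair were Psmb8.

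Glo1, a glyoxalase gene on chromosome 17 that belongs to no list here, was lower under hypoxia in each class, with log2 ratios from -1.25 in HSC/MPP-gated to -0.69 in neutrophil-gated cells. No cause was tested.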
